A study of Mus musculus with 7 samples.

Results

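The matrix-degrading metalloproteases Mmp8, Mmp12, Mmp14 and Mmp19, the membrane-bound sheddases Adam8 and Adam17, and the tissue inhibitors Timp2 and Timp3 were followed in mouse alveolar macrophages, which patrol the airspaces of the lung. These 8 genes were taken by symbol from a table of 47643 genes, and each matched 1 row. Poly(A) RNA was sequenced from cells labelled as positive for CD11c, F480 (the macrophage surface marker encoded by Adgre1) and SiglecF in the wild type. Of the 7 libraries, 3 were labelled WT, 3 came from cSiah1a/2f/f::Lyz2cre animals (Lyz2cre), and 1 came from a cSiah1a/2f/f::CD11ccre animal (CD11ccre). In the Cre groups floxed Siah1a and Siah2, which encode RING-type E3 ubiquitin ligases, were the targets of a Cre recombinase driven from the lysozyme M gene or from the promoter of CD11c. Lyz2 is active in macrophages, monocytes and neutrophils, and CD11c marks alveolar macrophages and dendritic cells, so neither driver is restricted to the alveolar macrophage. The labels give no age or sex, do not say whether WT animals carried Cre or the floxed alleles, and do not state whether each replicate was its own animal, so the p-values reflect library-to-library spread, which may be technical.

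Matrix metalloproteases (MMPs) are zinc enzymes made as inactive precursors, and a cysteine of the prodomain holds the zinc until the prodomain is removed. Some MMPs are secreted and others are anchored in the membrane, and between them they cut collagens, elastin, fibronectin and other matrix proteins. ADAM proteases share the zinc-dependent catalytic fold and release the extracellular parts of membrane proteins such as TNF and its receptors. Tissue inhibitors of metalloproteases (TIMPs) bind the active site of these enzymes, so RNA levels of proteases and inhibitors do not give enzyme activity. In the lung, macrophage elastase (Mmp12) is best known for elastin breakdown and the airspace enlargement of smoke-exposed mice.

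Values are TPM, transcript abundances that are scaled for gene length and sum to the same total in each library. Sequencing depth cannot be read from them, and counting intervals are therefore not given. Siah1a ranged from 6.72 to 16.59 TPM over the WT libraries and from 0 to 0.05 TPM over the Cre libraries, and Siah2 from 12.69 to 17.33 TPM and from 1.21 to 1.95 TPM. All 12 alveolar macrophage markers examined, among them Chil3, Marco, Siglecf, Pparg, Itgax and Adgre1, averaged at least 1 TPM in each group. Their means lay far above that floor, which therefore does not test whether their pattern was kept, and they moved both ways. Mean Ear1 was 2554, 501 and 322 TPM in WT, Lyz2cre and CD11ccre (limma adjusted p = 0.00228 in Lyz2cre). Mean Marco was 431.7, 1416 and 1420 TPM (0.0220), and mean Pparg 122.6, 121 and 166.7 TPM (0.943). Mean Siglecf was 231 TPM for WT, 84.5 TPM for Lyz2cre and 53.9 TPM for CD11ccre (limma adjusted p = 0.00746 and 0.0136 against WT), and mean Chil3 was 21680, 60480 and 62200 TPM (limma adjusted p = 0.00221 and 0.00978). The part of these shifts in the members' values was not tested. Mitochondrially encoded genes took 7.54% to 9.25% of the TPM in WT, 2.67% to 4.61% in Lyz2cre and 4.23% in CD11ccre. The abundant transcripts Ftl1, Fth1, Chil3 and Lyz2 together took 4.91% to 5.30%, 14.45% to 16.3% and 19.1%. The median log2 fold change over all 11397 genes tested was -0.165 for Lyz2cre against WT and -0.291 for CD11ccre against WT, and median-of-ratios scaling moved these to 0.002 and 0.

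In WT the order of levels was Mmp19, Timp2, Adam17, Mmp8, Mmp12, Adam8, Mmp14 and Timp3. Mmp19 averaged 180.6 TPM ± 37.5 (SD, n = 3), rank 787 of all genes in the table, and no other member's WT range reached its own. The WT ranges of Timp2 and Adam17 overlapped, as did those of Mmp14 and Timp3, while the other neighbours in this order did not overlap. In Lyz2cre the ranges of Adam17 and Timp2 again overlapped, and those of Mmp8 and Mmp12 did too. In the CD11ccre library Mmp8, at 45.87 TPM, stood between Adam17 at 49.05 TPM and Timp2 at 39.05 TPM.

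In Lyz2cre against WT, Mmp12 and Mmp19 rose, while Mmp8, Adam8, Adam17 and the inhibitor Timp2 did not pass the test. Mmp14 and the inhibitor Timp3 were too low to be tested. Mmp12 rose 3.25-fold and Mmp19 rose 1.97-fold in mean TPM. Mmp8 was higher in all 3 Lyz2cre libraries than in any WT library but did not pass, and in CD11ccre it rose 3.64-fold over the WT mean. Timp2, the main TIMP of these cells by level, had a mean of 57.5 TPM ± 17.4 (SD, n = 3) in WT libraries and of 58.3 TPM ± 9.79 (SD, n = 3) in those of Lyz2cre. Fewer cells of a type and less RNA per cell cannot be told apart in such bulk samples.

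The test was limma on log2(TPM + 1) over genes with a mean of at least 1 TPM, with Benjamini-Hochberg adjusted p-values across every gene tested and a threshold of 0.05. Of the 8 members 6 could be tested, since Mmp14 and Timp3 averaged below 1 TPM. The members were chosen with earlier results of these data known, so the shares that follow do not test the set. In Lyz2cre against WT 2 members rose, 0 fell and 4 were not called, where 2.17% of all genes tested rose (247) and 4.60% fell (524). With median-of-ratios scaling 337 genes rose and 207 fell, and 3 members rose. In CD11ccre against WT 1 member rose, 0 fell and 5 were not called, where 0.895% of all genes tested rose (102) and 1.99% fell (227). With median-of-ratios scaling those counts were 154 and 87, and 2 members rose. The lone CD11ccre library adds nothing to the estimate of spread and was assumed to vary like the other groups, and both comparisons share the WT libraries.

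**Figure D1:**
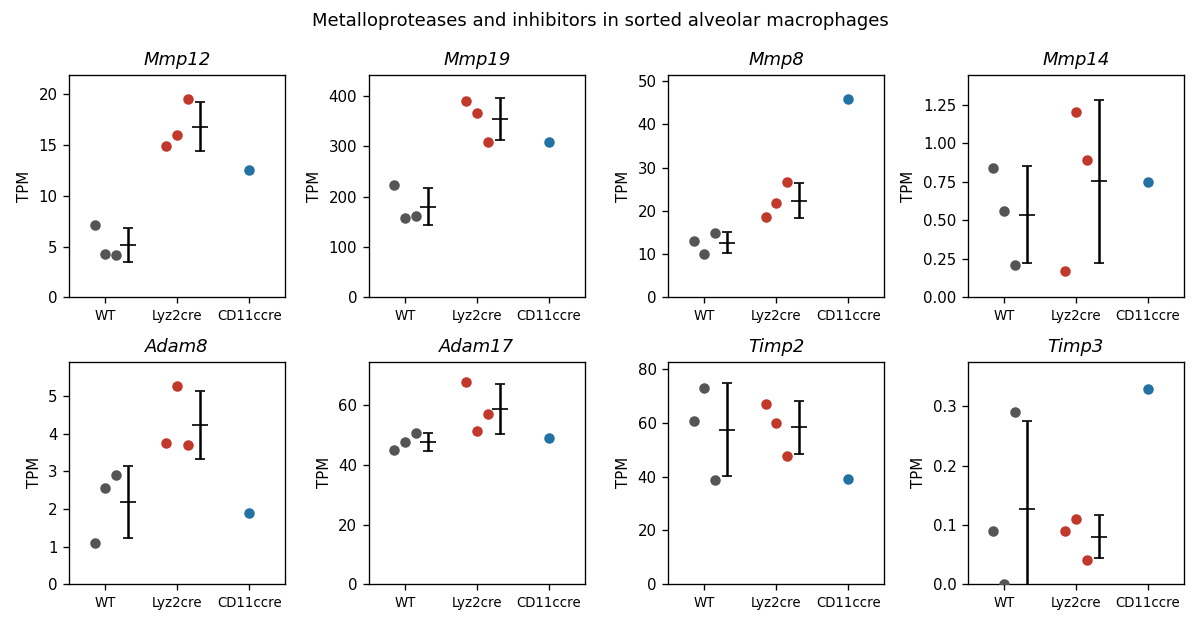
TPM of the 8 genes in each library (y axes linear and starting at 0, in TPM), with points for the WT, Lyz2cre and CD11ccre libraries and bars for the mean ± SD of 3 libraries. The Lyz2cre points of Mmp12 (14.95 to 19.49 TPM), Mmp19 (308 to 390 TPM) and Mmp8 (18.67 to 26.76 TPM) lie above all WT points, while those of Timp2 and Mmp14 overlap WT.

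Mmp12 (ENSMUSG00000049723, GRCm38 chr9:7344381-7369499, plus strand, up to 11 exons in GENCODE M21) encodes macrophage elastase. The WT libraries held 7.13, 4.24 and 4.17 TPM of it, those of Lyz2cre 14.95, 16.02 and 19.49 TPM, and that of CD11ccre 12.50 TPM. The lowest Lyz2cre library was thus above the highest WT library, and the CD11ccre library lay between the groups. The mean went from 5.18 TPM ± 1.69 to 16.8 TPM ± 2.37 (SD, n = 3 each), a log2 fold change of 1.55 ± 0.23 (SE; limma adjusted p = 0.0119). Permuting the 6 libraries exactly (two-sided, on mean TPM) gave p = 0.1, which is the smallest value this design can reach. The call ended without Lyz2cre replicate 3 (adjusted p = 0.0576), and over 16 alternatives the adjusted p ran from 0.00826 to 0.0576. For CD11ccre against WT the log2 fold change was 1.16, with a 95% interval of 0.40 to 1.92 and an adjusted p of 0.0987, so Mmp12 was not called there. Rescaling the libraries without mitochondrial genes, Ftl1, Fth1, Chil3 and Lyz2 gave a log2 fold change of 1.67 in Lyz2cre, about as large as before. The 3′ end of Mmp12 overlaps Mmp1b on the opposite strand, and Mmp1b was listed at 0 in every library.

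Because Mmp12 had the largest log2 fold change of the members in Lyz2cre, and its chromosome 9 neighbour Mmp8 had the largest in the single CD11ccre library, the stretches before their start sites are printed here as RefSeq places them on GRCm38.p6. Each holds the 250 bases before a start, 5′ to 3′, with matches to 3 motifs in capitals. Mmp12 has 2 listed starts.
Mmp12, chr9:7344147-7344396, plus strand: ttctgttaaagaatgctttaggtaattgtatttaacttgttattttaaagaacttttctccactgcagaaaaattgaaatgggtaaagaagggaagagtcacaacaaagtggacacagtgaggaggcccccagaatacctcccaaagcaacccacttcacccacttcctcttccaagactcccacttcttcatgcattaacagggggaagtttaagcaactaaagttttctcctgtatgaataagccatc
Mmp12, chr9:7347124-7347373, plus strand: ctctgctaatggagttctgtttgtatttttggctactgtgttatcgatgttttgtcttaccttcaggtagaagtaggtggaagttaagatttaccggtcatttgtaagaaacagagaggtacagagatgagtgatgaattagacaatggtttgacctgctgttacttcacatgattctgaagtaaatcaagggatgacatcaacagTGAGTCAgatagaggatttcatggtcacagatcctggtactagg
Mmp8, chr9:7558179-7558428, plus strand: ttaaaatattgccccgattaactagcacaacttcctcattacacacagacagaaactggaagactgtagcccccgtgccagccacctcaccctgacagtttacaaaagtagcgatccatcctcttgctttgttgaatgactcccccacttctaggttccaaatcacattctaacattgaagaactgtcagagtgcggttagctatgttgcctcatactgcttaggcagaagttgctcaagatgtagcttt
The capitals mark the AP-1 motif TGANTCA, which binds Fos and Jun dimers and is the textbook element of several MMP promoters. It was found once, 44 bases before the second start of Mmp12, and in neither the other Mmp12 stretch nor that of Mmp8. Of the 22845 promoters of genes in the table, each 300 bases long with 50 bases after the start, 7.14% held this motif on either strand. The antioxidant response element TGACNNNGC was found in 13.1% of all promoters and among the members in that of Timp2 alone. The hypoxia response core ACGTG was found in 20.7% and among the members in that of Mmp14 alone. Of the 8 members 7 had a promoter in the RefSeq table, the exception being Mmp19. A match describes these letters and is not evidence of binding.

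Mmp19 (ENSMUSG00000025355, chr10:128790910-128800824, plus strand, up to 9 exons) encodes a secreted MMP that cuts basement membrane components. The WT libraries held 223.80, 157.02 and 160.89 TPM, those of Lyz2cre 389.70, 366.85 and 308.33 TPM, and that of CD11ccre 309.40 TPM. All 4 Cre libraries were above all 3 WT libraries, and the CD11ccre value lay inside the Lyz2cre range. The Lyz2cre mean was 355 TPM ± 42.0 (SD, n = 3), and the log2 fold change was 0.98 ± 0.17 (SE; limma adjusted p = 0.0188; exact permutation p = 0.1). The call ended without WT replicate 2 (0.0662) or 3 (0.0527) and without Lyz2cre replicate 1 (0.0687) or 2 (0.0660), while the log2 fold change stayed between 0.89 and 1.17 over 16 alternatives. The call also ended with no filter on low values (0.0679) and without limma's trend (0.0514). In CD11ccre the log2 fold change of 0.79 (95% interval 0.24 to 1.34) had an adjusted p of 0.114, and it passed with median-of-ratios scaling (0.0460). Tmem198b, which overlaps Mmp19 on the opposite strand, stood at 6.65 to 15.55 TPM. No source used here says whether the quantification used strand.

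Mmp8 (ENSMUSG00000005800, chr9:7558456-7568485, plus strand, 10 exons) encodes neutrophil collagenase, which cuts fibrillar collagens. Its WT values were 12.94, 10.01 and 14.89 TPM, its Lyz2cre values 18.67, 21.75 and 26.76 TPM, and its CD11ccre value 45.87 TPM. The groups did not overlap, and the CD11ccre library was the highest of the 7. In Lyz2cre the mean was 1.78-fold that of WT, 22.4 TPM ± 4.08 against 12.6 TPM ± 2.46 (SD, n = 3 each), with a log2 fold change of 0.78 ± 0.20 (SE) that missed the threshold (limma adjusted p = 0.0612; exact permutation p = 0.1). It passed with median-of-ratios scaling (0.0468) and with a minimum mean of 5 TPM (0.0459). In CD11ccre the log2 fold change was 1.80 ± 0.28 (SE; limma adjusted p = 0.0269), which was lost on leaving out WT replicate 1 (0.0639), WT replicate 2 (0.0586) or Lyz2cre replicate 2 (0.0563). It also ended without limma's trend (0.0562).

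The difference in Mmp8 between the Cre lines themselves did not pass: Lyz2cre minus CD11ccre gave a log2 difference of -1.02 with a 95% interval of -1.68 to -0.36 and a limma adjusted p of 0.749. Because Mmp8 and Mmp9 are stored in neutrophil granules, neutrophil markers are given beside it. Of the 12 markers Elane, Ly6g, Ngp and Camp were listed at 0 in all 7 libraries, and 5 averaged at least 1 TPM in WT. The summed TPM of the list was 45.0 to 94.3 in WT, 108.7 to 143 in Lyz2cre and 106.5 in CD11ccre. Its members moved apart: mean S100a8 was 24.9 TPM without and 100.9 TPM with Lyz2cre (limma adjusted p = 0.00985), mean Csf3r 21.2 and 8.38 TPM (limma adjusted p = 0.0392), and mean S100a9 19.8 and 4.40 TPM (limma adjusted p = 0.117). Mean Cxcr2 was 2.76 and 5.50 TPM (limma adjusted p = 0.206). In CD11ccre, where Mmp8 was called, S100a8 was at 92.1 TPM (limma adjusted p = 0.0545), Cxcr2 at 6.65 TPM (0.247), Csf3r at 4.43 TPM (0.0436) and S100a9 at 1.62 TPM (0.133). The Csf3r call in CD11ccre ended under 12 of 15 alternatives, including leaving out any 1 WT library or Lyz2cre replicate 1 or 2. The S100a8 call ended with no filter on low values (0.0554). The Csf3r call ended under 11 of 16 alternatives, including leaving out WT replicate 1, 2 or 3 or Lyz2cre replicate 2 or 3, and leaving out Lyz2cre replicate 1 did not end it. Mmp9 itself was listed at 0, 0 and 0.90 TPM for WT, 0, 0.56 and 0.87 TPM for Lyz2cre and 0.29 TPM for CD11ccre. The part of neutrophils in the Mmp8 values was not tested.

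**Figure D2:**
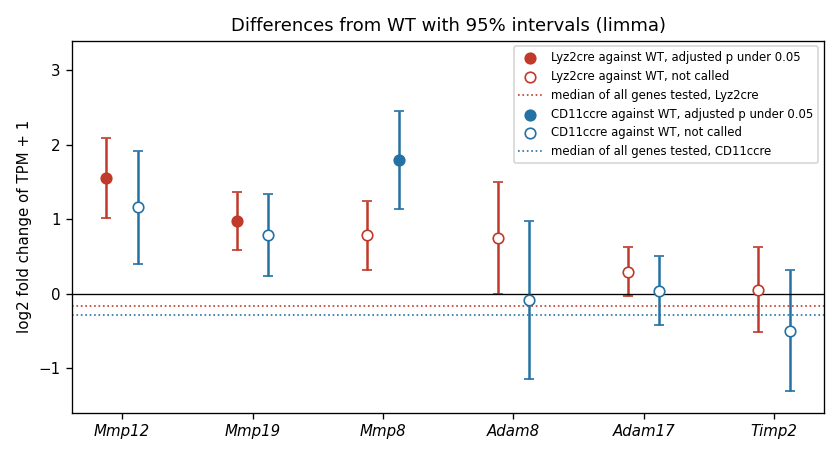
Log2 fold change of TPM + 1 against WT (y axis) for the 6 tested genes in Lyz2cre (red) and CD11ccre (blue), with 95% intervals, filled points for an adjusted p under 0.05 and dotted lines at the median of all genes tested. Mmp12 and Mmp19 are called in Lyz2cre and Mmp8 in CD11ccre, while the intervals of Adam17 and Timp2 include 0 in both lines.

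Mmp14 (ENSMUSG00000000957, chr14:54431612-54445364, plus strand) encodes a membrane-anchored MMP that activates pro-MMP2 at the cell surface. Its WT values were 0.84, 0.56 and 0.21 TPM, its Lyz2cre values 0.17, 1.20 and 0.89 TPM, and its CD11ccre value 0.75 TPM. The groups overlapped (exact permutation p = 0.6), and the lowest and the highest values were both in Lyz2cre. Mmp2, its substrate, was as low, between 0.46 and 1.06 TPM for WT, between 0.36 and 1.12 TPM for Lyz2cre and 0.82 TPM for CD11ccre. In a fit with no filter on low values the Mmp14 log2 fold change was 0.16 ± 0.30 (SE; limma adjusted p = 0.791).

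Mmp12 and Mmp8 lie in a cluster of 10 MMP genes on chromosome 9 that spans 427 kb of GRCm38 (chr9:7272514-7699585). Of these, 2 reached a mean of 1 TPM in any group, namely Mmp12 and Mmp8. Mmp1a, Mmp1b, Mmp3, Mmp7, Mmp10 and Mmp20 were listed at 0 in every library. Mmp13 stood at 0 to 0.36 TPM. Mmp27, the annotated neighbour after Mmp8, was listed at 0 in all WT libraries, with 0.61, 0 and 1.27 TPM for Lyz2cre and 0.26 TPM for CD11ccre.

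**Figure D3:**
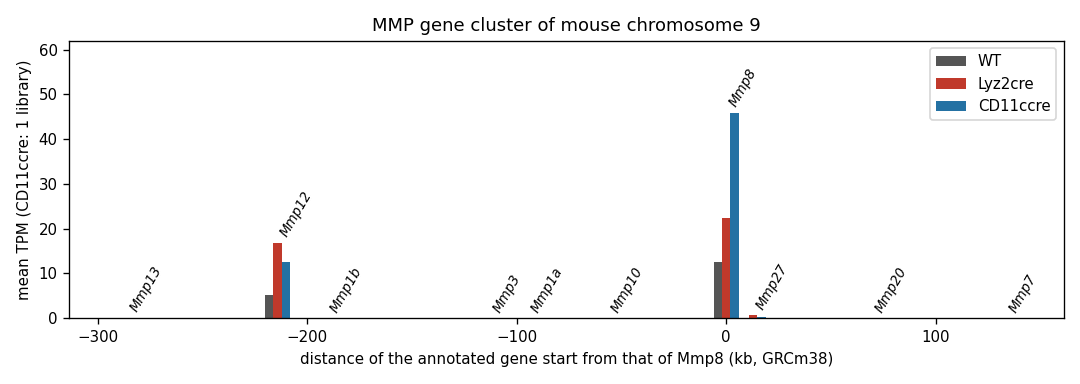
Mean TPM (y axis; 1 library for CD11ccre) of the 10 MMP genes of the chromosome 9 cluster, placed by the distance of their annotated starts from that of Mmp8 in kb. Mmp12 (5.18, 16.8 and 12.5 TPM in WT, Lyz2cre and CD11ccre) and Mmp8 (12.6, 22.4 and 45.87 TPM) have visible bars, while the genes between them are listed at 0.

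The sheddases Adam8 and Adam17 were higher in every Lyz2cre library than in any WT library, without passing the test. Adam8 (ENSMUSG00000025473, chr7:139978932-139992562, minus strand), a sheddase of leukocytes, had WT values of 1.10, 2.55 and 2.91 TPM, Lyz2cre values of 3.74, 5.27 and 3.69 TPM and a CD11ccre value of 1.89 TPM. The CD11ccre value lay inside the WT range. The log2 fold change of Lyz2cre against WT was 0.75 ± 0.32 (SE; limma adjusted p = 0.201; exact permutation p = 0.1). It was 0.48 without WT replicate 1 and 0.925 without WT replicate 3. Over 15 alternatives it ran from 0.37 with a pseudocount of 5 to 1.01 with a pseudocount of 0.1, and passed under none. Adam8 overlaps Gm16201 on the other strand, at 0 to 0.87 TPM.

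Adam17 (ENSMUSG00000052593, chr12:21323509-21373632, minus strand), the TNF-converting enzyme, had WT values of 44.88, 47.68 and 50.66 TPM, Lyz2cre values of 68.00, 51.48 and 57.07 TPM and a CD11ccre value of 49.05 TPM. The gap between the highest WT and the lowest Lyz2cre library was small, and the CD11ccre value was within the WT range. The log2 fold change in Lyz2cre was 0.29 with a 95% interval of -0.04 to 0.62 (limma adjusted p = 0.251; exact permutation p = 0.1). It was 0.18 without Lyz2cre replicate 1, 0.47 with median-of-ratios scaling and 0.46 with quantile normalization, and passed under none of 16 alternatives. In CD11ccre it was 0.04 with an interval of -0.42 to 0.50 (limma adjusted p = 0.928). Iah1, on the opposite strand at this locus, stood at 57.18 to 79.42 TPM. Counted together, Mmp12, Mmp19, Mmp8, Adam8 and Adam17 were the 5 of 6 tested members whose Lyz2cre values all lay above WT. Of all genes tested 7.45% did so and 23.3% lay entirely below. The members were chosen with earlier results of these data known, so these shares do not test the set.

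Timp2 (ENSMUSG00000017466, chr11:118301069-118355740, minus strand) inhibits MMPs and also takes part in the activation of pro-MMP2 by MMP14. Its WT values were 60.83, 72.90 and 38.61 TPM, its Lyz2cre values 67.19, 59.87 and 47.81 TPM, and its CD11ccre value 39.05 TPM. The Lyz2cre values lay inside the WT range, and the CD11ccre value was close to the lowest WT library. The log2 fold change in Lyz2cre was 0.05 with a 95% interval of -0.52 to 0.63 (limma adjusted p = 0.922; exact permutation p = 1). Its sign turned without WT replicate 3 (-0.20) and without Lyz2cre replicate 1 (-0.05). In CD11ccre it was -0.50 with an interval of -1.31 to 0.32 (limma adjusted p = 0.439), and -0.18 with median-of-ratios scaling. Timp2 shares its strand with Cep295nl, which was not matched in the table.

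Timp3 (ENSMUSG00000020044, chr10:86300372-86349506, plus strand) encodes the TIMP that stays bound to matrix and is a strong inhibitor of ADAM17. Its WT values were 0.09, 0 and 0.29 TPM, its Lyz2cre values 0.09, 0.11 and 0.04 TPM, and its CD11ccre value 0.33 TPM, so all values were near 0 and the groups overlapped (exact permutation p = 0.9). Timp1, a soluble inhibitor outside the set, had WT values of 1.40, 0.15 and 0 TPM, Lyz2cre values of 1.14, 0.52 and 2.54 TPM and a CD11ccre value of 2.54 TPM (log2 fold change in Lyz2cre 0.69, limma adjusted p = 0.452). Timp4 was listed at 0 in all libraries, and the membrane inhibitor Reck was at 0 in all but 1 Lyz2cre library (0.05 TPM). Beside these low genes, the summed TPM of 11 fibroblast and smooth muscle markers was 11.6 to 17.9 in WT, 10.25 to 13.2 in Lyz2cre and 19.4 in CD11ccre, and 5, 6 and 6 of them averaged at least 1 TPM. The part of such cells in the values of Mmp14, Timp1 and Timp3 was not tested.

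Summed over all 23 MMP genes, TPM was 246.6, 173.6 and 182.7 in the WT libraries, 424.5, 407.7 and 358.9 in the Lyz2cre libraries and 370.4 in CD11ccre. Mmp19 alone made up 83.5% to 91.8% of that sum. The 4 TIMP genes summed to 62.3, 73.05 and 38.9 TPM for WT, to 68.4, 60.5 and 50.4 TPM for Lyz2cre and to 41.9 TPM for CD11ccre. The quotient of the sums was 3.96, 2.38 and 4.70 in WT, 6.20, 6.74 and 7.12 in Lyz2cre and 8.84 in CD11ccre, so the groups did not overlap. This quotient is given as a description of RNA shares, which any rescaling of a library leaves as it is.

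**Figure D4:**
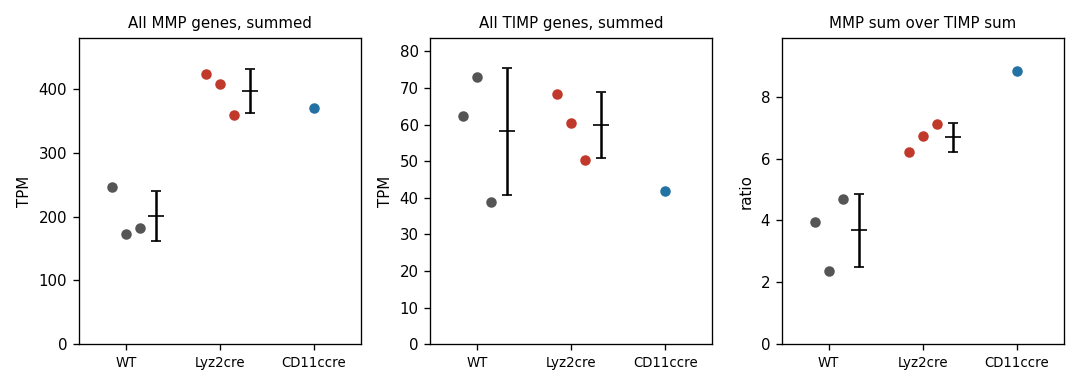
Summed TPM of all MMP genes and of all TIMP genes, and the quotient of these sums (y axes linear from 0), by library, with bars for the mean ± SD of 3 libraries. The MMP sum lies at 358.9 to 424.5 TPM in Lyz2cre against 173.6 to 246.6 TPM in WT, while the TIMP sums of WT and Lyz2cre overlap.

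The members did not move as one block across libraries. Over the 7 libraries, Pearson's r of log2(TPM + 1) was 0.947 between Mmp12 and Mmp19, 0.700 between Mmp12 and Mmp8 and 0.652 between Mmp19 and Mmp8. Timp2 had an r of -0.026 with Mmp12 and -0.609 with Mmp8. These describe libraries that share genotypes and the TPM scale. Among 6299 protein-coding genes with a mean of at least 10 TPM, the closest to Mmp12 were Sdc3, a syndecan (r = 0.991), and Slc31a1, a copper transporter (r = 0.988). Mean Sdc3 was 47.7, 88.4 and 71.8 TPM for WT, Lyz2cre and CD11ccre, and mean Slc31a1 was 9.07, 14.1 and 13.3 TPM. The closest to Mmp19 were Slc39a11, a zinc transporter (r = 0.977), and the annexin Anxa4 (r = 0.977). In the same order mean Slc39a11 was 11.5, 20.6 and 19.5 TPM, and mean Anxa4 was 232.9, 361.7 and 348.9 TPM.

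Other genes of the protease network moved both ways in Lyz2cre against WT. Of the 19 other MMP genes 0 reached the level for testing. Of the 11 other ADAM genes 5 were tested, of which 0 rose and 1 fell (median log2 fold change -0.69). Adam22, a catalytically inactive family member, fell from WT values of 7.33, 8.21 and 6.21 TPM to Lyz2cre values of 2.48, 3.67 and 2.41 TPM (limma adjusted p = 0.0350). That call ended whichever of the 6 libraries was left out. It also ended with median-of-ratios scaling (limma adjusted p = 0.0629), quantile normalization (0.0622), no filter on low values (0.0823) and the replicate block (0.0660). The Adam22 call held under 6 of 16 alternatives. The sheddases Adam9, Adam10 and Adam15 were not called, with a mean Adam15 of 94.9 TPM ± 15.8 for WT and 56.2 TPM ± 13.8 for Lyz2cre (SD, n = 3 each; limma adjusted p = 0.0753). Of the 19 ADAMTS genes 2 were tested and 0 were called in either direction.

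Among 16 genes for ADAM partners, proprotein convertases and clearance of proteases, 11 were tested, 1 rose, 0 fell and the median log2 fold change was 0.00. The tetraspanin Cd63, which binds TIMP1 at the cell surface, rose from WT values of 509.45, 533.40 and 263.17 TPM to Lyz2cre values of 1088.54, 1159.94 and 1400.14 TPM (limma adjusted p = 0.0201). This call was lost on leaving out any 1 Lyz2cre library. It also ended with no filter on low values (limma adjusted p = 0.0873), without limma's trend (0.0501) and with the replicate block (0.0557), and held under 10 of 16 alternatives. The ADAM17 partners Rhbdf1, Rhbdf2 and Frmd8 were not called. Furin, the convertase that removes the prodomains of Adam17 and Mmp14, had means of 80.5, 114 and 82.1 TPM for WT, Lyz2cre and CD11ccre (Lyz2cre against WT, limma adjusted p = 0.0703).

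In the list of the plasminogen axis and serine protease inhibitors, 7 of 12 genes were tested, 1 rose and 1 fell (median log2 fold change -0.03). Serpinb6a, an intracellular serpin, rose from a mean of 240.5 TPM in WT to 346.6 TPM (limma adjusted p = 0.0394). S100a10, a plasminogen receptor subunit, fell from a mean of 991.1 TPM to 683.7 TPM (limma adjusted p = 0.0229). The Serpinb6a call ended without WT replicate 2 or 3 or any 1 Lyz2cre replicate, and the S100a10 call without WT replicate 1 or 2 or any 1 Lyz2cre replicate. Both calls also ended with no filter on low values, without limma's trend and with the replicate block, and that of S100a10 with median-of-ratios scaling. The Serpinb6a call held under 8 of 16 alternatives and the S100a10 call under 7 of 16. The urokinase receptor Plaur, chosen after its values were seen, fell in CD11ccre to 269.74 TPM from WT values of 413.88, 461.63 and 417.24 TPM (limma adjusted p = 0.0484), which was lost on leaving out any 1 of the WT or Lyz2cre libraries and with median-of-ratios scaling.

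Of 18 ADAM17 substrates 11 were tested, 0 rose and 2 fell (median log2 fold change 0.06). The membrane chemokine Cx3cl1 fell from a mean of 22.8 TPM ± 1.96 to 10.6 TPM ± 1.58 with Lyz2cre (SD, n = 3 each; limma adjusted p = 0.0153), and its CD11ccre value was 8.44 TPM (limma adjusted p = 0.0358). The CD11ccre call ended under 10 of 15 alternatives, among them leaving out any 1 WT library or Lyz2cre replicate 1 or 2. The junction protein F11r fell from a mean of 221.1 TPM to 119.3 TPM with Lyz2cre (limma adjusted p = 0.0189). The Lyz2cre call of Cx3cl1 was lost on leaving out WT replicate 1 or Lyz2cre replicate 2 or 3. The F11r call ended without WT replicate 2 or any 1 Lyz2cre replicate, with no filter on low values and without limma's trend. It held under 10 of 16 alternatives. Mean Tnf was 25.4 TPM for WT and 29.1 TPM for Lyz2cre, and its receptors Tnfrsf1a and Tnfrsf1b averaged 144.3 and 133.7 TPM and 94.7 and 126.8 TPM, none of them called.

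Of 14 matrix proteins cut by these enzymes 4 were tested, 1 rose and 1 fell (median log2 fold change -0.37). Fibronectin (Fn1) fell from WT values of 180.70, 206.27 and 184.88 TPM to Lyz2cre values of 52.56, 27.49 and 30.65 TPM and a CD11ccre value of 11.63 TPM (limma adjusted p = 0.00346 and 0.00707). Osteopontin (Spp1) rose from WT values of 412.25, 710.17 and 564.34 TPM to Lyz2cre values of 1808.55, 1799.06 and 2208.94 TPM (limma adjusted p = 0.00500). Both calls in Lyz2cre held under all 16 alternatives. The CD11ccre value of Spp1, 1455.52 TPM, also passed against WT (limma adjusted p = 0.0484), a result lost when any 1 of the other 6 libraries was left out. In CD11ccre against WT, Spp1 rose, Cx3cl1, Fn1 and Plaur fell, and no other tested gene of these lists passed. Elastin (Eln), the main matrix substrate of macrophage elastase, did not reach the level for testing.

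**Figure D5:**
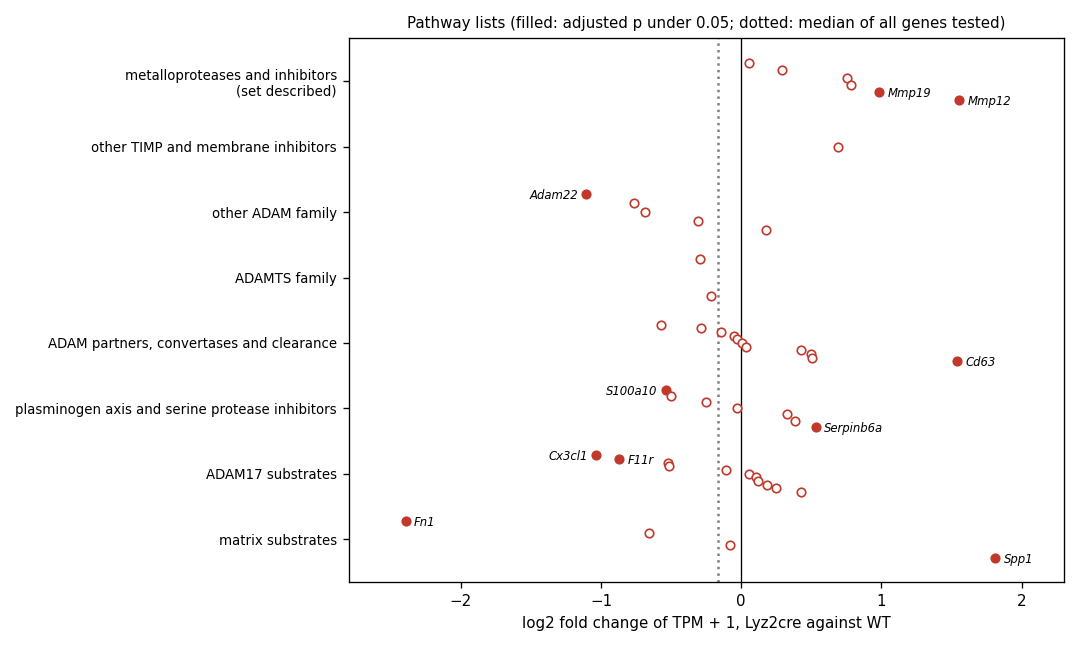
Log2 fold change of TPM + 1 in Lyz2cre against WT (x axis) for every tested gene of the set and of the pathway lists (rows), filled and named where the adjusted p is under 0.05, with a dotted line at the median of all genes tested (-0.165). Mmp12, Mmp19, Cd63, Serpinb6a and Spp1 are called on the right, Adam22, S100a10, Cx3cl1, F11r and Fn1 on the left.

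Between the Cre lines, Lyz2cre against CD11ccre called 0 of the 6 tested members by limma, where 0.114% of all genes tested were called (13). At an unadjusted threshold of 0.05 the limma fit passed 1 of the 6, Mmp8, and 6.10% of all genes tested (695). The 95% intervals of the log2 difference ran from -0.37 to 1.15 for Mmp12, from -0.36 to 0.74 for Mmp19 and from -0.26 to 1.37 for Timp2, so differences of such sizes between the lines could not be told from 0 with 1 CD11ccre library.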

How the data were processed

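Poly(A) RNA of sorted mouse alveolar macrophages was made into strand-specific libraries and read from one end, per the labels' protocols. Trimming tool cutadapt 2.3, aligner STAR 2.7.0d and quantifier RSEM 1.3.1 appear with build mm10 in the submitters' processing notes, which give no parameters. Annotation release and strand setting: not given in the sources used here. The authors deposited TPM values to 2 decimals, and 1 library that gives a few transcripts a larger share lowers all its other values.

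Groups came from the sample titles. limma 3.58.1 in R 4.3.3 was fitted to log2(TPM + 1) of all 7 libraries with a coefficient per genotype and an intensity trend (residual degrees of freedom 4, prior 3.35). Genes with a mean of at least 1 TPM entered (11397). Fold values are quotients of mean TPM, and log2 values understate changes of low genes. The fit was tested on simulated data. Coordinates are from GENCODE M21 (GRCm38), where 47224 of 47643 gene IDs matched, and promoters from RefSeq (GRCm38.p6).

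The members and lists were chosen with earlier results of these data known, and 1 gene of the plasminogen list is not reported here and was left out of its counts. Named were all members, other MMP and TIMP genes averaging at least 1 TPM in a group, up to 4 called genes per list by adjusted p, and the 2 most correlated genes of each called member. Targets, markers, overlapping genes and the other list genes named were chosen after their values were seen. Alternatives were pseudocounts of 0.1 and 5, other filters, scalings and fits, a replicate block, and leaving out each library. Lung epithelial markers summed to 140 to 231.8 TPM in WT, 145 to 331 TPM in Lyz2cre and 243.2 TPM in CD11ccre, most of it Scgb1a1. Monocyte and interstitial macrophage markers summed to 3.53 to 13.4, 4.29 to 13.0 and 5.20 TPM. Genes within both lists moved apart. In the same order, mean Ccr2 was 4.66, 0.74 and 0.60 TPM (limma adjusted p = 0.036 in Lyz2cre). Mean C1qb was 0.31, 2.34 and 0.40 TPM (0.292). Mean Ager was 5.14, 1.29 and 1.84 TPM (0.0711), and mean Sftpb 1.57, 3.82 and 5.56 TPM (0.0932). The part of such cells in the members' values was not tested. Endothelial markers summed to 30.3 to 59.9, 88.2 to 126.8 and 72.6 TPM, nearly all of it Vwf.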

Additional observations from a re-analysis of the deposited data

How the results depend on the processing

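Of 273 refits of the 6 tested members, 248 kept their direction and their side of the threshold. That count includes differences never called, such as all 89 refits between the Cre lines, for which staying uncalled counts as kept. The called results were less stable. In Lyz2cre the Mmp12 call held under 15 of 16 alternatives and the Mmp19 call under 10 of 16. In CD11ccre the Mmp8 call held under 10 of 15. The 771 genes called in Lyz2cre against WT became 342 with no filter on low values, 436 without limma's trend and 390 with the replicate block, 239 to 514 when 1 WT or Lyz2cre library was left out and 833 without CD11ccre. The 2 members called there became 1 with no filter or without the trend, and 1 to 2 with a library left out. The 329 genes of CD11ccre against WT became 201 with quantile normalization, 122 without the trend, 21 with the replicate block and 94 to 183 with 1 WT or Lyz2cre library left out. Its 1 called member became 2 with median-of-ratios scaling, 0 without the trend or with the block, and 0 to 1 with a library left out. The 13 genes between the Cre lines became 210 with no filter, 3 with the block and 2 to 11 with a library left out.

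The share of higher calls also moved with scaling and with the filter on low values. In Lyz2cre 316 genes rose and 213 fell with quantile normalization, and 278 and 267 with rescaling without the most abundant transcripts. In CD11ccre 300 rose and 193 fell with no filter. The uncalled CD11ccre difference of Adam8 turned positive with median-of-ratios scaling (0.12), quantile normalization (0.186), the block (0.25), rescaling (0.026) and without WT replicate 2 (0.012) or 3 (0.082), and ran from -0.366 to 0.082 over the left-out libraries. That of Adam17 turned negative with the block (-0.025) and without WT replicate 1 (-0.003), with a range of -0.003 to 0.083 over the left-out libraries. Timp2 in Lyz2cre turned negative without WT replicate 3 (-0.203) and Lyz2cre replicate 1 (-0.053), with a range of -0.203 to 0.247 over the left-out libraries.

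Same-numbered WT and Lyz2cre libraries had deviations from their group means correlated at -0.0149, 0.0431 and 0.0656. Differently numbered ones had correlations of -0.0975 to 0.0599. With 3 libraries per group these values cannot tell whether the numbers pair the samples. With the block, Mmp12 (0.0433) and Mmp19 (0.0270) stayed called in Lyz2cre and Mmp8 in CD11ccre was not (0.0769). The block leaves 2 residual degrees of freedom and a left-out WT or Lyz2cre library 3, against 4 in the fit reported and without CD11ccre. The cause of the other moves was not tested. Depth cannot be recovered from TPM, so the precision of Mmp14, Timp1 and Timp3 is unknown.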
